A study of Mus musculus with 12 samples.

Results

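The 10 genes described are members of the Wnt pathway, followed in mouse embryonic fibroblasts (MEFs), primary connective tissue cells grown from embryos. They were the ligands Wnt5a and Wnt4, the secreted modulators Sfrp1, Sfrp2, Sfrp4, Frzb, Wif1, Dkk2 and Dkk3, and the intracellular feedback gene Axin2. They were chosen by name, with earlier results of these data known, as the 10 genes of this list among the 32095 genes or transcripts on the array. All 12 of their probes were read. All 10 had a probe that passed the filter on dim probes, as did 19507 genes or transcripts in all. The MEFs came from E12.5 embryos and were either Itpr2 knock-out (KO) or wild type (WT), and had been grown for 5 passages (late) or 3 passages (early). The 4 groups were KO late, WT late, KO early and WT early, with 3 arrays each. Each array held Cy3-labelled cRNA made from 100 ng of total RNA of one culture, and no other treatment was named. The Itpr2 product is a receptor for inositol trisphosphate that lets calcium out of the endoplasmic reticulum. The labels give neither the strain nor the kind of Itpr2 allele, and they do not say whether late and early cultures of the same number came from the same embryo.

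Wnt proteins are secreted, lipid-modified ligands that bind Frizzled receptors. With the co-receptors Lrp5 and Lrp6 they stop the breakdown of beta-catenin, which then acts with TCF/LEF factors in the nucleus, while other Wnts, Wnt5a among them, act mostly without beta-catenin. Secreted Frizzled-related proteins and Wif1 bind Wnts outside the cell, and Dickkopf proteins such as Dkk2 act on the Lrp co-receptors. Fibroblasts are a known source of many of these secreted proteins.

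A level is given here as the log2 of the scanner signal minus the log2 of the 75th percentile of that array, so a level of 0 is a signal equal to that percentile. Levels of different probes are not comparable, because probes differ in how strongly they bind, and only differences between groups for the same probe are read. Where 3 levels are given, they are those of replicates 1, 2 and 3. Replicates of the same number lay on the same slide, and each of the 3 slides held 1 array of every group. Differences were tested with limma on all 12 arrays, with p-values adjusted by the Benjamini-Hochberg method over all 19507 genes and a threshold of 0.05. On each array 59.2% to 67.5% of the probes were well above background.

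The array's kept Itpr2 probe was read first. Its levels were 1.75, 1.83 and 1.72 in KO late MEFs, 1.53, 1.74 and 1.56 in WT late MEFs, 1.12, 1.36 and 1.58 in KO early MEFs, and 1.23, 0.96 and 0.66 in WT early MEFs. Where this probe lies relative to the deleted part was not stated in the labels or files, so it does not check the genotype. Fibroblast markers were present, with 12 of 12 well above background on all 12 arrays, but so were 16 of 16 macrophage markers. Of endothelium, Kdr and Pecam1 were well above background on all 12 arrays and Cdh5 and Tie1 on 0, and the whole list had 2 to 4 of 6 markers above on an array. Of epithelium, Krt18, Krt19 and Esrp1 were above on all 12 and Cdh1 and Krt8 on 0, with 3 to 6 of 9 on an array. Of skeletal muscle, Acta1, Tnnt1 and Tnnt3 were above on all 12 and Myod1, Myog and Myf5 on 0, with 3 to 7 of 11 on an array. Xist, made from the silenced X chromosome of females, was above background on KO late replicates 1 and 2, WT late replicate 1, WT early replicate 1 and no KO early array. KO late replicate 1 also had the Y-linked genes Ddx3y, Eif2s3y and Uty above background, which the other 3 arrays with Xist did not. Its Xist level was -1.09 and its Eif2s3y level 0.31, against -0.17 and -7.20 in KO late replicate 2 and -8.67 and 1.38 in KO late replicate 3. KO late and KO early arrays of the same number thus differed in Xist on slides 1 and 2, so the differences given within slides need not compare cultures of the same embryo. The groups differ in the number of arrays with Xist, and results are also given without KO late replicates 1 and 2 where this ends a call.

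Late KO cells had more Axin2 signal than late WT cells, and 1 of the 10 genes passed the test in this comparison, against 7.83% of all genes tested and 3.46% called higher. All 10 differences were above 0, with a median of 0.52 on the log2 scale, while the median of all genes was -0.0081. Those of Dkk3, Sfrp1 and Frzb were small, at 0.0092, 0.029 and 0.093, and 5 of the 10 were positive on all 3 slides. The genes were chosen with earlier results of these data known, so this count of signs is a description only. In WT cells, 4 of the 10 were called lower with passage, namely Sfrp1, Sfrp2, Wif1 and Axin2, against 10.6% of all genes called in either direction and 4.37% called lower. Of these, Axin2 was well above background on 0 of 3 WT late and 1 of 3 WT early arrays, and the size of its fall is not set. All 10 differences between late and early WT cells were below 0, with a median of -0.999, while the median of all genes was -0.0043. On all 3 slides 8 of the 10 were negative, and this too is a description only. These comparisons share the WT late arrays, so low values on those arrays enter both. In KO cells, 0 of the 10 passed with passage by limma, where 4 had a p under 0.05 before adjustment and 18.9% of all genes were called. At early passage 0 of the 10 differed between KO and WT by limma, where Axin2 alone had a p under 0.05 before adjustment and 0.0359% of all genes were called. The passage change itself was not shown to differ between genotypes for any of the 10, with 0 called by limma, 1, Axin2, with a p under 0.05 before adjustment, and 0.0871% of all genes called. Groups of 3 arrays did not overlap for 4 of the 10 genes between KO late and WT late MEFs, against 39.3% of all genes. They did not overlap for 5 of the 10 between late and early KO cells, against 51.9% of all genes, and for 7 of the 10 between late and early WT cells, against 27.7%. For KO early and WT early MEFs they overlapped for every one of the 10, with 9.54% of all genes not overlapping.

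These counts over all genes moved with single arrays. Leaving out each array in turn gave 255 to 2353 genes called between KO late and WT late MEFs, against 1528 with all 12 arrays, with the fewest without KO late replicate 1 and the most without WT early replicate 3. It gave 1780 to 4742 with passage in KO cells, against 3696, and 1166 to 2459 with passage in WT cells, against 2065. For the difference of the passage changes it gave 1 to 230, against 17, with the most without KO early replicate 3, and at early passage 2 to 5, against 7. Without both KO late arrays with Xist, 1 gene was called between KO late and WT late MEFs and 165 with passage in KO cells. The 4 calls of members with passage in WT cells were all lost when only the WT arrays were fitted, with adjusted p from 0.087 to 0.137 in limma. When only the KO arrays were fitted, Sfrp2, Frzb and Dkk3 were called lower with passage, with adjusted p of 0.0062, 0.0065 and 0.028 in limma. Which genotype holds calls of members with passage thus depends on the groups fitted.

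**Figure D1:**
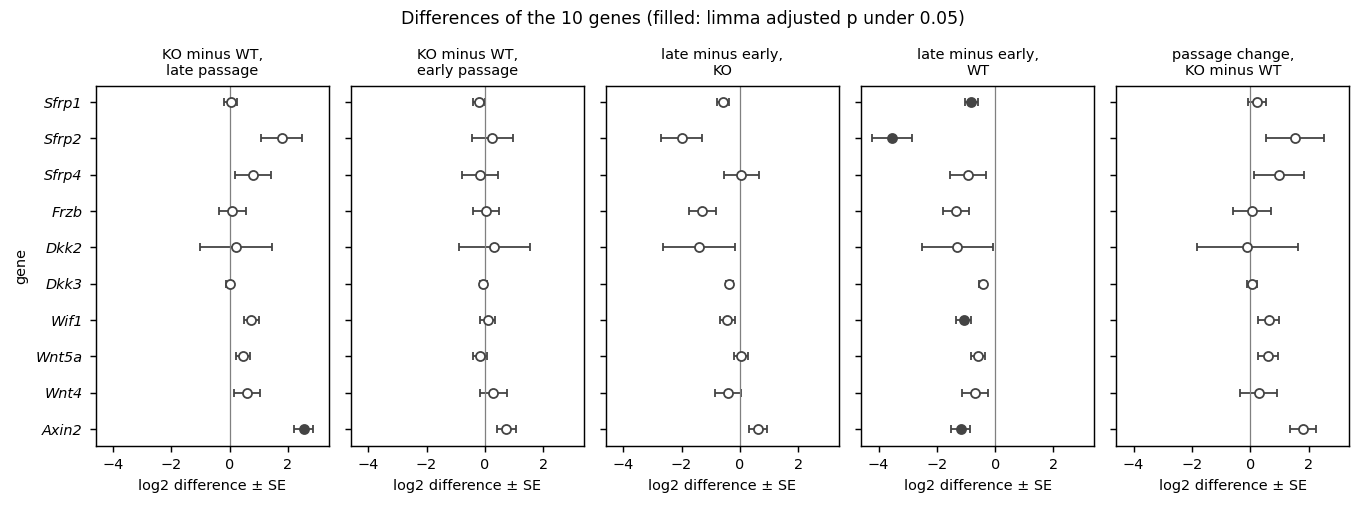
Log2 differences of the 10 genes in the 5 comparisons, with bars of 1 standard error from the limma fit and filled points for an adjusted p under 0.05. Axin2 is the filled point in KO minus WT at late passage, and Sfrp1, Sfrp2, Wif1 and Axin2 are filled in late minus early passage of WT cells.

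**Figure D2:**
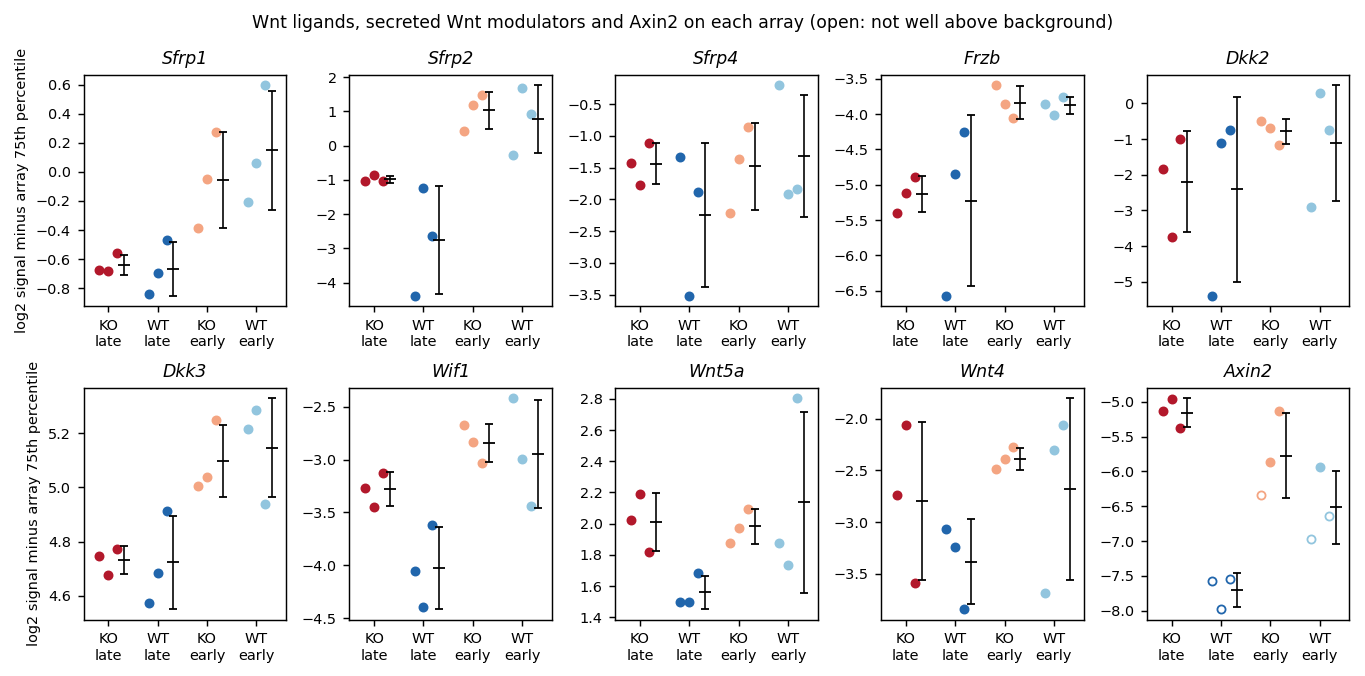
Level of each gene on each of the 12 arrays (log2 signal minus the array's 75th percentile), with 3 points per group for replicates 1 to 3 and the mean ± SD beside them. Open points were not well above background, which occurs for Axin2 alone among the probes drawn. The scale of the vertical axis differs between panels.

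Of the 2 ligands, Wnt5a, which steers cell polarity and movement, had levels of 2.02, 2.19 and 1.82 in KO late MEFs and 1.5, 1.5 and 1.68 in WT late MEFs. It had 1.88, 1.97 and 2.10 in KO early MEFs and 1.88, 1.73 and 2.80 in WT early MEFs. The late groups did not overlap, with the KO arrays higher, and WT late lay below WT early on every array, but WT early replicate 3 was well above its 2 partners. The late against early difference in WT was -0.58 ± 0.24 (SE, 3 arrays per group) with an adjusted p of 0.14 in limma, so Wnt5a passed in no comparison. Between KO late and WT late MEFs it was 0.45 ± 0.24 with an adjusted p of 0.27, which became 0.034 without WT early replicate 3, so this array decides that call.

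Wnt4, a ligand with roles in kidney and gonad development, had levels of -2.74, -2.06 and -3.59 in KO late MEFs and -3.06, -3.24 and -3.84 in WT late MEFs. Its levels were -2.49, -2.39 and -2.28 in KO early MEFs and -3.68, -2.30 and -2.06 in WT early MEFs. The groups overlapped in all 4 pairs, and the smallest adjusted p over the 5 comparisons was 0.34. The other Wnt4 probe was well above background on 6 of the 12 arrays, was left out by the filter, and was not tested.

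Among the secreted Frizzled-related proteins, Sfrp2 moved furthest. Its levels were -1.03, -0.86 and -1.04 in KO late MEFs and -4.39, -1.24 and -2.65 in WT late MEFs. They were 0.43, 1.18 and 1.46 in KO early MEFs and -0.27, 1.69 and 0.91 in WT early MEFs. Every late array was below every early array of its genotype, and the 3 WT late arrays were spread over more than 3 log2 units while the 3 KO late arrays lay close together. In WT cells Sfrp2 fell by 3.54 ± 0.70 on the log2 scale (SE, 3 arrays per group), an 11.6-fold lower signal, with an adjusted p of 0.014 in limma. Within slides the WT differences were -4.11, -2.93 and -3.57, and the call held without each of the 12 arrays in turn, with adjusted p from 0.0076 to 0.046.

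In KO cells the Sfrp2 difference was -2.005 ± 0.70 with an adjusted p of 0.072, and within slides it was -1.46, -2.05 and -2.51. With slide as a block the adjusted p was 0.024, so this call depends on the design. It was also past the threshold without WT late replicate 1, at 0.025, and without WT late replicate 2, at 0.034. KO late arrays were all above WT late arrays, by 1.78 ± 0.70 with an adjusted p of 0.15, and within slides by 3.36, 0.38 and 1.61. Without WT late replicate 2 that difference was 2.54 with an adjusted p of 0.045, so this array decides the call. The difference of the 2 passage changes was 1.53 ± 0.99 with an adjusted p of 0.51, and a smaller fall in KO cells was not shown.

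Sfrp1, a Wnt-binding relative of Sfrp2, had levels of -0.68, -0.68 and -0.56 in KO late MEFs and -0.84, -0.70 and -0.47 in WT late MEFs. It had -0.39, -0.05 and 0.27 in KO early MEFs and -0.21, 0.06 and 0.60 in WT early MEFs. In each genotype all late arrays were below all early ones, and the genotypes overlapped at both passages. In WT cells Sfrp1 fell by 0.82 ± 0.21 with an adjusted p of 0.037. That call was lost without WT late replicate 1 or 2, WT early replicate 2 or 3, KO late replicate 1, 2 or 3, or KO early replicate 2, with adjusted p from 0.055 to 0.107, and at 0.090 without both KO late arrays with Xist. In KO cells the difference was -0.58 ± 0.21 with an adjusted p of 0.081, which became 0.017 with slide as a block and 0.033 without WT early replicate 3.

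Frzb, the Frizzled-related protein first known from cartilage, had levels of -5.40, -5.11 and -4.88 in KO late MEFs and -6.57, -4.85 and -4.25 in WT late MEFs. It had -3.59, -3.86 and -4.06 in KO early MEFs and -3.86, -4.01 and -3.76 in WT early MEFs. Late arrays again lay below early ones in both genotypes, and the early groups were tight. The late minus early difference was -1.29 ± 0.46 in KO cells, and an adjusted p of 0.076, and -1.35 ± 0.46 in WT cells, with an adjusted p of 0.091. WT late replicate 1, the lowest array, widened the shared spread: leaving it out gave the KO difference an adjusted p of 0.0030. On leaving out WT late replicate 3 the adjusted p was 0.037 in KO cells and 0.029 in WT cells.

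Sfrp4, another Wnt-binding member, had levels of -1.43, -1.77 and -1.11 in KO late MEFs and -1.33, -3.52 and -1.88 in WT late MEFs. It had -2.22, -1.36 and -0.87 in KO early MEFs and -0.20, -1.91 and -1.84 in WT early MEFs. The groups overlapped in every pair, and the smallest adjusted p was 0.34.

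Wif1, the Wnt inhibitory factor that binds the ligands directly, had levels of -3.27, -3.45 and -3.12 in KO late MEFs and -4.05, -4.40 and -3.62 in WT late MEFs. It had -2.67, -2.83 and -3.03 in KO early MEFs and -2.42, -2.99 and -3.44 in WT early MEFs. KO late arrays were all above WT late arrays, and late arrays were below early ones in both genotypes. In WT cells Wif1 fell by 1.07 ± 0.26 with an adjusted p of 0.028, and within slides the differences were -1.63, -1.40 and -0.18. The call was lost without WT late replicate 1 or 2 or WT early replicate 2, with adjusted p from 0.063 to 0.083, and at 0.069 without both KO late arrays with Xist. Between KO late and WT late the difference was 0.74 ± 0.26 with an adjusted p of 0.10, and no array left out in turn brought it past the threshold.

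Dkk3, a divergent Dickkopf protein, had levels of 4.75, 4.68 and 4.77 in KO late MEFs and 4.57, 4.68 and 4.91 in WT late MEFs. It had 5.01, 5.04 and 5.25 in KO early MEFs and 5.21, 5.28 and 4.94 in WT early MEFs. The late minus early difference was -0.37 ± 0.12 in KO cells, with an adjusted p of 0.061, and -0.42 ± 0.12 in WT cells, with an adjusted p of 0.051. Both values missed the threshold, though late and early arrays did not overlap in either genotype. Without WT early replicate 3 the adjusted p was 0.031 in KO cells and 0.029 in WT cells, and without WT late replicate 3 it was 0.047 in KO cells and 0.036 in WT cells. In the authors' deposited table the WT difference, of -0.43 in a limma fit, had an adjusted p of 0.042.

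Dkk2, which binds the co-receptor Lrp6, varied most between replicates. Its levels were -1.84, -3.75 and -0.99 in KO late MEFs and -5.39, -1.10 and -0.73 in WT late MEFs. They were -0.50, -0.68 and -1.18 in KO early MEFs and -2.90, 0.29 and -0.74 in WT early MEFs. Only the KO early arrays lay close together, and on slide 1 both WT arrays were the lowest of their group. The SE of each pairwise difference was 1.23, and the smallest adjusted p in limma was 0.45. The late minus early differences of -1.41 in KO cells and -1.29 in WT cells were larger than this SE and were not called. Changes of that size were thus not detectable here.

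Axin2, a scaffold of the complex that marks beta-catenin for breakdown, is itself switched on by beta-catenin and is widely used as a readout of that signal. Its brighter probe had levels of -5.14, -4.96 and -5.38 in KO late MEFs and -7.57, -7.98 and -7.54 in WT late MEFs. It had -6.34, -5.86 and -5.13 in KO early MEFs and -6.97, -5.94 and -6.64 in WT early MEFs. The probe was well above background on 3 of 3 KO late, 0 of 3 WT late, 2 of 3 KO early and 1 of 3 WT early arrays. In scanner intensity it read 21.4, 25.0 and 16.6 in KO late MEFs, against 4.8, 2.9 and 4.8 in WT late MEFs, so this is a dim probe.

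Axin2 rose in KO late over WT late MEFs by 2.54 ± 0.32 on the log2 scale (SE, 3 arrays per group), with an adjusted p of 0.0032. The probe passed the filter through the KO late group alone, where it is high, so the filter and the test are not independent. With no filter the adjusted p was 0.0098, and with a filter that asks for 6 of the 12 arrays of any group it was 0.0034. The probe passed that second filter only with the KO late arrays counted, so it does not remove the dependence. The size depends on the background: subtracting it with an offset of 50 gave a difference of 0.51 with an adjusted p of 0.032, and normexp gave 1.08 with an adjusted p of 0.68. With the background as subtracted in the scanner files, the WT late arrays give a bound only, of at least 2.77-fold higher signal in KO late MEFs. The differences with the offset and with normexp were below the log2 value of this bound, 1.47. Both treatments add 50, more than any intensity read for this probe, which narrows a ratio whatever its size. They therefore do not test the bound, which was computed for the background of the scanner files alone. A bound of this kind sets the mean of the bright group against the higher of the dim probe's own signal and the lowest signal well above background on each array. Within slides the difference was 2.43, 3.01 and 2.17, and the call held without each of the 12 arrays in turn, with adjusted p from 0.0018 to 0.021. Leaving out both KO late arrays with Xist gave a difference of 2.32 and ended the call, in a fit that gives the single KO late array left the spread of the other groups. With Xist as a covariate on all 12 arrays the difference was 2.56, with an adjusted p of 0.0075 in limma. Axin2 was not analysed here in the authors' deposited table.

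In WT cells the late minus early difference of Axin2 was -1.18 ± 0.32, with an adjusted p of 0.043 in limma. The probe was well above background on 0 of 3 WT late and 1 of 3 WT early arrays, so the size of this difference is not set. A bound of the kind given above was only 1.08-fold lower signal in WT late MEFs. With the offset of 50 it was -0.39, with an adjusted p of 0.078. The call was lost with slide as a block, at an adjusted p of 0.051, and without any 1 of the WT late or KO late arrays, WT early replicate 2 or 3, or KO early replicate 2, with adjusted p from 0.059 to 0.118. It was also lost without both KO late arrays with Xist and, at an adjusted p of 0.054, with Xist as a covariate. In KO cells the late minus early difference was 0.62 ± 0.32 with an adjusted p of 0.20, which was 0.049 without KO early replicate 3, and within slides it was 1.20, 0.90 and -0.25. Between KO early and WT early MEFs it was 0.74 ± 0.32 with an adjusted p of 0.74. The difference of the passage changes was 1.80 ± 0.45 with an adjusted p of 0.16, and without KO early replicate 3 it was 2.12 with an adjusted p of 0.044.

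The other Axin2 probe, which was left out by the filter, did not show this pattern. Its intensities were 3.8, 8.4 and 9.1 in KO late MEFs, 2.4, 10.6 and 3.7 in WT late MEFs, 6.1, 14.5 and 3.4 in KO early MEFs, and 2.1, 6.5 and 1.6 in WT early MEFs. The late groups overlapped, and it was well above background on 2 of the 12 arrays, so it sets neither a level nor a direction.

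**Figure D3:**
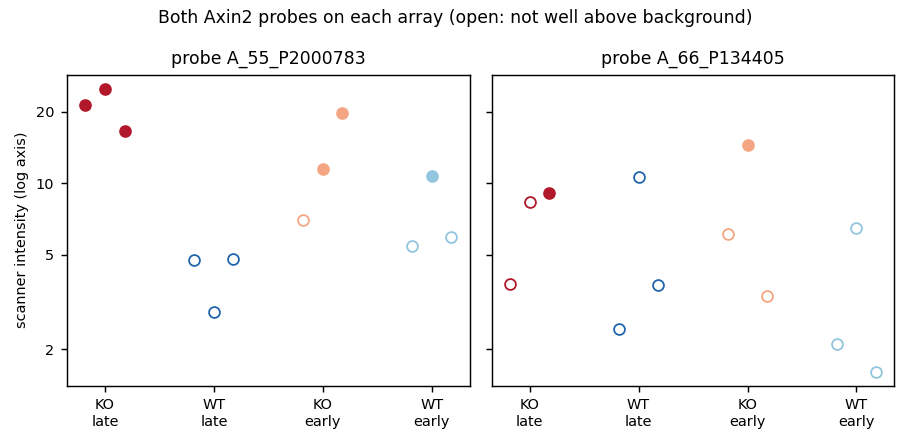
Scanner intensity (log axis) of both Axin2 probes on each array, with filled points where the probe was well above background and open points where it was not. The tested probe, on the left, reads 16.6 to 25.0 in KO late MEFs and 2.9 to 4.8 in WT late MEFs, and the groups overlap for the other probe.

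Markers of several cell types moved with the late KO and WT groups, given as the log2 of their summed signal relative to the array's percentile. Over all genes 7.83% were called between these groups and 3.46% called higher. Cartilage markers summed to 5.74 to 6.07 in KO late MEFs and 5.43 to 5.70 in WT late MEFs, and 7 of 14 measured were called higher. All 14 cartilage differences were above 0, with a median of 1.28. Epithelial markers summed to -1.24 to -1.09 in KO late MEFs and 0.52 to 0.86 in WT late MEFs, and 1 of 4 measured was called lower. Col9a3 of the cartilage list was well above background on 0 arrays. Macrophage markers summed to 5.57 to 6.50 in KO late MEFs and 6.60 to 7.29 in WT late MEFs, and 2 of 16 were called lower. Of the 16 macrophage differences 15 were below 0 and 1 above, and 13 had a p under 0.05 before adjustment in limma. Fibroblast markers summed to 9.02 to 9.15 in KO late MEFs and 8.72 to 8.93 in WT late MEFs, with 3 of 12 called higher and 1 lower. Neural and glial markers summed to 3.20 to 3.54 in KO late MEFs and 3.88 to 4.07 in WT late MEFs, with 1 of 6 measured called lower. Skeletal muscle markers summed to 2.98 to 3.23 in KO late MEFs and 3.37 to 3.98 in WT late MEFs, with 1 of 5 called lower. Endothelial markers summed to 1.76 to 1.84 in KO late MEFs and 1.91 to 1.93 in WT late MEFs, and 0 of 2 were called by limma, also at an unadjusted p under 0.05. Smooth muscle markers overlapped, at 8.61 to 8.92 in KO late MEFs and 8.84 to 9.21 in WT late MEFs, with 1 of 5 called lower. Between WT late and WT early MEFs, 4 of 12 fibroblast, 4 of 14 cartilage and 3 of 5 measured skeletal muscle markers were called lower, and the fibroblast sum was 8.72 to 8.93 in WT late MEFs and 9.13 to 9.44 in WT early MEFs. Over all genes 10.6% were called in this comparison and 4.37% called lower. Macrophage markers went the other way there, with 14 of 16 differences above 0, 2 below, a median of 0.86 and 1 called higher. Their sums overlapped, at 6.60 to 7.29 in WT late MEFs and 6.04 to 6.98 in WT early MEFs. Of 6 measured neural and glial markers 2 were called higher and 1 lower. Less RNA per cell and fewer cells of a type cannot be told apart in these bulk samples, and the part of these markers in the results above was not tested.

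Start regions are printed for Sfrp2, Wif1 and Axin2, which were called lower with passage in WT cells, and for Frzb, which holds CTTTGA. They are RefSeq sequences on GRCm38.p6, 250 bases before to 50 bases after the gene's start, 5′ to 3′ on the gene's strand, and 6 of the 10 genes had an entry. Capitals mark a match to CTTTGA, a form of the core of TCF/LEF sites, or to TATAAA, both searched on both strands. Other forms of that core and the bases beside it were not searched.
Sfrp2, chr3:83766071-83766370, plus strand: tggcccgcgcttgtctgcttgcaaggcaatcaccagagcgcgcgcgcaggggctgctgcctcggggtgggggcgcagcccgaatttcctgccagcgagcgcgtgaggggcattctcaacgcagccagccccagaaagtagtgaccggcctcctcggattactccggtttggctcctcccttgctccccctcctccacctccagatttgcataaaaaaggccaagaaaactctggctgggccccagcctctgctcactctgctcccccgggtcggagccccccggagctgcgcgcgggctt
Wif1, chr10:121033754-121034053, plus strand: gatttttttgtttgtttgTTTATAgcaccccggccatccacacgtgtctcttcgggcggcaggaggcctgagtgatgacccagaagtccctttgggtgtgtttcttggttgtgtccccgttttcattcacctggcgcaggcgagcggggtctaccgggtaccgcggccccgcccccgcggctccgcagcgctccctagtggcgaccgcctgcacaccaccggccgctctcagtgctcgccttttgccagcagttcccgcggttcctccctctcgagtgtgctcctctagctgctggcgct
Axin2, chr11:108920099-108920398, plus strand: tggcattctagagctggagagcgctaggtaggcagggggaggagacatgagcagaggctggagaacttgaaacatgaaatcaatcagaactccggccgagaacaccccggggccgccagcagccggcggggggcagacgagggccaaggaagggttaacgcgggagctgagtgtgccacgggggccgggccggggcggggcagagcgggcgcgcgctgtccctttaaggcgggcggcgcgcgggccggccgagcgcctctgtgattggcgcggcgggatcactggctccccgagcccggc
Frzb, chr2:80447347-80447646, minus strand: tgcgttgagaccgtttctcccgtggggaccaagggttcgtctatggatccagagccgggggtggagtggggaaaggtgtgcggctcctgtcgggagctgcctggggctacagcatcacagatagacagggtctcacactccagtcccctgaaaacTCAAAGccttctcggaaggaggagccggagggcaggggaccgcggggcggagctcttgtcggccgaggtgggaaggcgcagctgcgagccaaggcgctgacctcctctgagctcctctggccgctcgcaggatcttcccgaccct

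Of the 6 entries, 1 held CTTTGA, that of Frzb, which was not called in any comparison, against 16% of all 32851 promoters in the table. TATAAA was in 2 of the 6, Wif1 and Dkk2, against 13.6% of all. The Axin2 window held 31 CpG dinucleotides, the Wif1 window 25 and the Sfrp2 window 22, where the median of all promoters was 7. Of the genes not called, Wnt4 had 51, the most of the 6, Frzb 20 and Dkk2 11. A count above the median was thus not particular to the called genes. A match describes these letters only, and no match says only that they are not in this window.

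Over the 12 arrays, the genes outside the list whose levels ran most like those of the changed members were found by Pearson correlation, given as a description. For Sfrp2 these were Slc27a3 (r = 0.98), Gli1 (0.97) and the transcript XR_392864 (0.96). For Axin2 they were Igsf10 (0.97), Slc7a11 (0.97) and Bicc1 (0.97). For Sfrp1 they were Bcorl1 (0.98), Clpb (0.97) and Selenon (0.97), and for Wif1 they were S100b (0.95), Pgap2 (0.94) and Abcb9 (0.94). Among the members, Frzb and Sfrp2 were the most alike (r = 0.80), followed by Dkk3 and Frzb (0.79). The arrays share slides and groups, so these values mix differences between groups with those within them.

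The remaining genes of the pathway were counted by role, beside shares over all genes of 7.83% called between KO late and WT late MEFs, 18.9% with passage in KO cells and 10.6% with passage in WT cells. Each of the 39 calls counted was lost under normexp background correction, with adjusted p from 0.0585 to 0.731. Over all genes normexp called 11 higher and 3 lower between KO late and WT late MEFs. With passage it called 7 higher and 0 lower in KO cells, and 10 higher and 8 lower in WT cells. The loss is thus not particular to this pathway. Of the other Wnt ligands, 8 of 17 were measured. In KO late against WT late MEFs 1 was called higher. With passage in KO cells 3 were called higher and 2 lower, and with passage in WT cells 1 was called lower. Leaving out each array in turn gave 0 to 2, 2 to 6 and 0 to 2 called in these comparisons. The median difference of the 8 was 0.58 for KO late against WT late, 0.66 for passage in KO and 0.13 for passage in WT, beside -0.0081, -0.047 and -0.0043 for all genes. Wnt5b, a relative of Wnt5a, had levels of 1.22, 1.34 and 1.39 in KO late MEFs, 0.07, 0.44 and -0.07 in WT late MEFs, -0.62, 0.08 and 0.38 in KO early MEFs, and -0.39, 0.05 and -0.49 in WT early MEFs. KO late thus stood above all 3 other groups. Wnt5b rose with passage in KO cells by 1.37 ± 0.24 (SE), adjusted p 0.0052, and was higher in KO late than in WT late MEFs by 1.17 ± 0.24, adjusted p 0.021. The second of these calls was lost without any 1 of the KO late arrays or WT late replicate 1 or 3, with adjusted p from 0.0506 to 0.0715. Wnt16 rose with passage in KO cells by 1.94 ± 0.42, adjusted p 0.012, and Wnt10a by 2.29 ± 0.56, adjusted p 0.019. The Wnt10a call was lost without KO late replicate 1 or 3 or KO early replicate 1 or 2, with adjusted p from 0.0518 to 0.0752. Wnt11, which guides cell movement, fell by 0.85 ± 0.19 in WT cells, adjusted p 0.023, and by 0.64 ± 0.19 in KO cells, adjusted p 0.043. The WT call was lost without WT late replicate 1 or 3, with adjusted p of 0.0598 and 0.0727, and the KO call without any 1 of the KO arrays or WT late replicate 3, with adjusted p from 0.0537 to 0.136, and with slide as a block, at 0.065.

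Of the other secreted modulators and genes of Wnt secretion, 8 of 14 were measured and 0 were called by limma in any of the 5 comparisons, where leaving out 1 array gave up to 2 between KO late and WT late MEFs. Their median difference was 0.22 for KO late against WT late and -0.075 for passage in WT. The R-spondins Rspo1, Rspo2 and Rspo3, which strengthen Wnt signals through Lgr receptors, were among the 8, while Dkk1, Dkk4, Sost, Cer1, Sfrp5 and Rspo4 did not pass the filter.

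Receptors were measured for 20 of 23 genes. Between KO late and WT late MEFs 3 were called higher and 0 lower, with passage in KO cells 5 were higher and 2 lower, and in WT cells 0 were higher and 4 lower. With each array left out in turn the calls numbered 2 to 5, 2 to 9 and 2 to 5. The median difference of the 20 was 0.29 for KO late against WT late and -0.22 for passage in WT. Fzd1, a Frizzled receptor, had levels of 3.63, 3.81 and 3.39 in KO late MEFs, 2.36, 2.41 and 2.18 in WT late MEFs, 2.26, 2.70 and 2.85 in KO early MEFs, and 2.71, 2.59 and 2.37 in WT early MEFs. It was higher in KO late than in WT late MEFs by 1.29 ± 0.17 (SE), adjusted p 0.0035. Fzd9, also a Frizzled receptor, had -0.25, -0.16 and -0.16 in KO late MEFs, -3.28, -2.67 and -2.83 in WT late MEFs, -1.80, -1.40 and -1.20 in KO early MEFs, and -1.02, -2.70 and -2.72 in WT early MEFs. It was higher in KO late than in WT late MEFs by 2.73 ± 0.39, adjusted p 0.0052. Both calls held without each array in turn and were lost on leaving out both KO late arrays with Xist, at differences of 1.07 and 2.76. The third receptor called was Fzd2, by 0.69 ± 0.18, adjusted p 0.043, and it was named after its values were seen. That call was lost without any 1 of the KO late or WT late arrays, KO early replicate 2 or WT early replicate 2, with adjusted p from 0.0546 to 0.137. Fzd4 fell with passage in WT cells by 1.72 ± 0.33, adjusted p 0.012, and Lgr4, a receptor for R-spondins, by 1.60 ± 0.26, adjusted p 0.0062. Lgr4 also fell in KO cells, by 1.46 ± 0.26, adjusted p 0.0048. These 3 calls held without each array in turn. The calls of Fzd4 and Lgr4 in WT cells were lost when only the WT arrays were fitted, at adjusted p of 0.063 and 0.056. With the offset of 50 the Lgr4 difference was -0.99 in WT cells and -0.90 in KO cells.

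**Figure D4:**
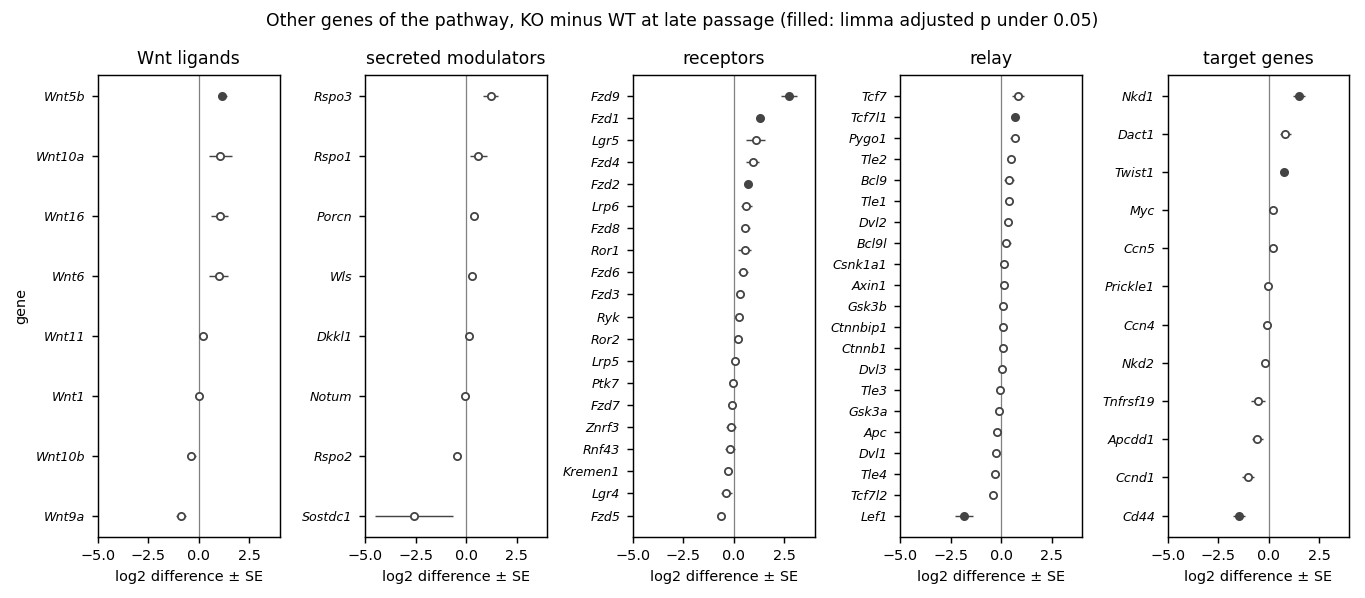
Log2 difference, KO minus WT at late passage, of each measured gene of 5 lists by role, with bars of 1 standard error from the limma fit and filled points for an adjusted p under 0.05. Wnt5b, Fzd9, Fzd1, Fzd2, Tcf7l1, Nkd1 and Twist1 are filled above 0, and Lef1 and Cd44 are filled below 0.

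The relay inside the cell was measured for 21 of 22 genes. Between KO late and WT late MEFs 1 was called higher and 1 lower, with passage in KO cells likewise 1 higher and 1 lower, and in WT cells 1 lower, and the calls numbered 0 to 4, 1 to 4 and 0 to 2 with each array left out in turn. Tcf7l1, a TCF factor that mostly represses, was higher in KO late than in WT late MEFs by 0.69 ± 0.15 (SE), adjusted p 0.027, and fell with passage in WT cells by 0.69 ± 0.15, adjusted p 0.021. The first call was lost without any 1 of the KO late arrays or WT late replicate 2 or 3, with adjusted p from 0.0572 to 0.0964, and the second without WT late replicate 2 or 3, with adjusted p from 0.0519 to 0.0603. Lef1, a TCF/LEF factor, had levels of -6.40, -7.02 and -7.53 in KO late MEFs, where it was well above background on 1 of 3 arrays, and -5.89, -5.28 and -4.25 in WT late MEFs. It had -3.91, -4.48 and -5.03 in KO early MEFs and -5.29, -4.41 and -4.45 in WT early MEFs. With passage in KO cells the difference was -2.51 ± 0.46, adjusted p 0.0057. As 2 of the 3 KO late values were not well above background, its size is uncertain: with each array's lowest signal well above background in place of any lower level it was -2.03, and with the offset of 50 it was -0.79, adjusted p 0.011. The call held without each array in turn and was lost without both KO late arrays with Xist, at 0.075. The difference between KO late and WT late MEFs was -1.84 ± 0.46, adjusted p 0.038, and -1.36 with the same floor. It was called under 9 of 23 alternatives, and its direction turned under normexp, at 0.46. The call was lost with quantile normalization at an adjusted p of 0.099, with the offset of 50 at 0.35, with no filter at 0.086, with only the groups compared or slide as a block at 0.066, and with Xist as a covariate at 0.068. It was also lost without any 1 of the KO late arrays, WT late replicate 2 or 3 or KO early replicate 2, with adjusted p from 0.0633 to 0.125. Axin1, a homologue of Axin2 and likewise a scaffold of the breakdown complex, rose with passage in KO cells by 0.35 ± 0.093, adjusted p 0.026. That call was lost without any 1 of the KO late arrays or KO early replicate 1 or 2, with adjusted p from 0.068 to 0.0979.

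Target genes of beta-catenin were measured for 12 of 18 genes, and they did not move one way. In KO late against WT late MEFs 2 were called higher and 1 lower, with a median of -0.062. With passage 3 were called higher and 4 lower in KO cells, and 1 higher and 2 lower in WT cells. Leaving out each array in turn gave 0 to 4 calls between KO late and WT late MEFs, 3 to 7 with passage in KO cells and 1 to 3 in WT cells. Nkd1, a feedback inhibitor that binds Dishevelled, had levels of 0.95, 1.04 and 0.86 in KO late MEFs, -0.47, -0.63 and -0.56 in WT late MEFs, 0.05, 0.63 and 1.00 in KO early MEFs, and 1.1, 0.26 and 0.01 in WT early MEFs. It was higher in KO late than in WT late MEFs by 1.5 ± 0.28 (SE), adjusted p 0.015, and fell with passage in WT cells by 1.01 ± 0.28, adjusted p 0.047. The first call was lost without KO late replicate 1 or 2, with adjusted p from 0.0562 to 0.0641. The second was lost with slide as a block, at 0.072, with the mean over its kept probes, where the difference was -0.47, and without any 1 of the late arrays, WT early replicate 1 or 2 or KO early replicate 2, with adjusted p from 0.0668 to 0.11. Twist1, a mesenchymal transcription factor, was higher in KO late than in WT late MEFs by 0.75 ± 0.14, adjusted p 0.014, a call lost without KO late replicate 1 or 2, with adjusted p of 0.0586 and 0.0588. The gene called lower was Cd44, a hyaluronan receptor named after its values were seen, by -1.46 ± 0.31, adjusted p 0.022. That call was lost without any 1 of the KO late arrays or WT late replicate 2 or 3, with adjusted p from 0.0509 to 0.0841.

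Myc, a driver of growth, rose with passage in both genotypes. Its levels were 1.37, 1.38 and 1.33 in KO late MEFs, 1.15, 0.98 and 1.26 in WT late MEFs, 0.48, 0.39 and 0.41 in KO early MEFs, and 0.32, 0.06 and 0.15 in WT early MEFs. The late minus early difference was 0.94 ± 0.096 in KO cells, adjusted p 0.00048, and 0.95 ± 0.096 in WT cells, adjusted p 0.00098, and both calls held without each array in turn but not under normexp, at 0.063 and 0.092. Prickle1, a planar polarity gene, fell with passage by 0.98 ± 0.19 in KO cells, adjusted p 0.0066, and by 0.72 ± 0.19 in WT cells, adjusted p 0.036. The KO call held without each array in turn. The WT call was lost without any 1 of the late arrays, WT early replicate 1 or 2 or KO early replicate 2, with adjusted p from 0.0523 to 0.0958. When only the WT arrays were fitted, the WT calls of Prickle1, Wnt11, Tcf7l1 and Nkd1 were also lost. They were lost as well with no filter on dim probes. Without both KO late arrays with Xist, the Myc calls, the Fzd4 call and the Lgr4 call in WT cells stayed past the threshold, and the other calls of pathway genes named here, from the Wnt ligands to the targets, did not.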

How the data were processed

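Total RNA of 12 MEF cultures was measured on Agilent arrays with 1 dye. The deposited scanner files hold intensities per spot, which per the file headers came from Agilent Feature Extraction 11.5.1.1 with background subtracted and no normalization between arrays, while the submitters' processing notes name version 10.7.3.1. The authors' deposited value table holds log2 values, from their values scaled and centred per probe, and was used as an alternative. No source used here gives the authors' filter on probes, and the number of arrays limits the precision.

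Processed intensities were taken to log2 after leaving out outlier spots and averaging repeated spots, and the 75th percentile of each array over its non-control spots was subtracted. Probes were kept if well above background throughout any 1 group of 3 arrays, 24466 in all, less 107 with an outlier spot, and the brightest stood for its gene. The array's accessions were matched to RefSeq symbols, which named 28330 of 39429 probes. A single limma 3.58.1 model in R 4.3.3 with 4 group means on 12 arrays gave 5 contrasts, with 8 residual and 2.22 prior degrees of freedom. The code was tested on simulated data.

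The members and lists were chosen with earlier results of these data known. All members were named, and for each other list up to 4 called genes with the smallest p, with 3 most similar genes for each called member. Replicate numbers marked a shared slide per the file headers. Same-numbered WT late and WT early arrays deviated together (r = 0.28, 0.24 and 0.14), while in KO they did not (r = 0.030, 0.079 and -0.092). The design text states 3 independent animals per genotype. Alternatives covered normalization, background, filter, probe summary, outlier spots, slide, groups fitted, the deposited table, Xist and each array left out. The files lack the mean signal, so normexp used the median signal. Liver samples named in the design text were not analysed here.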

Additional observations from a re-analysis of the deposited data

How the results depend on the processing

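Of the 16 member differences with an unadjusted p under 0.05, 14 kept their direction under every alternative run. The exceptions came under normexp background correction, which called 0 members between KO late and WT late MEFs and 0 with passage in WT, and turned Dkk3 with passage in KO to 0.35 and the Axin2 difference of passage changes to -0.70. That correction raised the median spot to 1535 on KO early replicate 3 and 111 on KO late replicate 2, from 73 and 77, shifted the median of all genes by -0.33 with passage in KO, by 0.30 between KO and WT at early passage, and called 14 genes in all between KO late and WT late MEFs. Subtracting the background with an offset of 50, chosen after seeing the data, gave Axin2 a difference of 0.51 between KO late and WT late MEFs, against 2.54, with an adjusted p of 0.032, and called 2 members with passage in KO, Sfrp2 and Frzb. The count of members with passage in WT was 1 with no filter on dim probes, 0 with only the groups compared and 1 without KO late replicates 1 and 2. With passage in KO it was 3 with only the groups compared and 2 with slide as the replicate block, Sfrp1 and Sfrp2. Beside these and Axin2 in WT, the block changed no other member's call. Between KO late and WT late MEFs it was 0 in the authors' deposited table, where Axin2 was not tested, and 0 without KO late replicates 1 and 2. Leaving out each array in turn gave 1 to 2 members between KO late and WT late MEFs, 0 to 2 with passage in KO, 1 to 5 with passage in WT and 0 to 1 for the difference of passage changes. Of the other 34 member differences, 24 changed sign and 2 passed the threshold under at least 1 alternative. Over all genes, 675 were higher and 853 lower in KO late MEFs, and 997 and 788 with quantile normalization. With passage in WT, 1213 were higher and 852 lower, and 749 and 968 with the offset. Of the 39 calls of other pathway genes, 0 held under normexp, 21 with no filter, 25 with Xist as a covariate, 29 with only the groups compared, 35 with slide as the block and 4 without KO late replicates 1 and 2. Signals near background limit Axin2, Lef1 and the other probes of Wnt4 and Axin2. The cause of these shifts was not tested.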
